A study of Mus musculus with 15 samples.

Results

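Expression of 7 genes of the androgen response and of androgen conversion was described in male mouse kidney: Kap, Odc1, Gusb, Srd5a1, Srd5a2, Hsd17b2 and Hsd17b11. They are 7 of the 47069 genes in the deposited table, and all 7 passed the filter on low values in every fit. The members were selected on gene function and with measured values of these libraries known. Kap and Hsd17b2 were chosen by their difference between tubules and whole kidney, and Srd5a2 by its difference between tubule sets m3 and m2. These differences are therefore given as descriptions, without a test.

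Androgens change gene expression in the kidney, where testosterone and the more potent dihydrotestosterone are the active hormones. Steroid 5-alpha-reductases make dihydrotestosterone from testosterone, and 17-beta-hydroxysteroid dehydrogenases interconvert more and less active androgens and estrogens. The proximal tubule is the main androgen-responsive part of the mouse kidney, where Kap, Odc1 and Gusb are classical androgen-induced genes.

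The study measured polyA RNA by RNA-Seq in 15 libraries from male C57BL/6 mice aged 2 months, with no allele or treatment named. Of these, 12 were single microdissected proximal tubules labelled PTS2, in 3 sets (m1, m2 and m3) of 4 numbered libraries, and 3 were whole kidney, numbered 1 to 3. The series is concerned with how well whole-kidney RNA-Seq shows the markers of its cell types. The labels do not say what m or the numbers stand for, nor that libraries came from separate animals, so p-values measure only the spread between these libraries, which may be technical. Values were TPM, a share of transcripts, which scale each gene to its length and each library to a total of 1000000. They can be compared between genes, but they keep no record of sequencing depth, which is unknown here.

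The promoters of the genes were read first, because the later results turn on Kap, the most abundant gene in the tubules, and on Odc1 and Srd5a2, which moved together across them. The RefSeq promoter table (build GRCm38.p6) matched 6 of the 7 members, each with 300 bases, from 250 before to 50 after the gene start. Below, capitals mark TATAAA, the TATA-box letters, and GGGCGG or its reverse complement CCGCCC, the letters of a GC box; the strand printed is that of the gene. The Kap promoter lies on the minus strand at chr6:133853618-133853917, the Odc1 promoter on the plus strand at chr12:17544623-17544922 and the Srd5a2 promoter on the minus strand at chr17:74047811-74048110.
Kap: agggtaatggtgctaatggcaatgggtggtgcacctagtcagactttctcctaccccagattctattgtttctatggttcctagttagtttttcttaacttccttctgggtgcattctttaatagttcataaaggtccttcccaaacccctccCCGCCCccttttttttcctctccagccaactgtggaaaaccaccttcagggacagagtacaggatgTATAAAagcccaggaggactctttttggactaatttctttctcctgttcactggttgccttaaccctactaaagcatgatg
Odc1: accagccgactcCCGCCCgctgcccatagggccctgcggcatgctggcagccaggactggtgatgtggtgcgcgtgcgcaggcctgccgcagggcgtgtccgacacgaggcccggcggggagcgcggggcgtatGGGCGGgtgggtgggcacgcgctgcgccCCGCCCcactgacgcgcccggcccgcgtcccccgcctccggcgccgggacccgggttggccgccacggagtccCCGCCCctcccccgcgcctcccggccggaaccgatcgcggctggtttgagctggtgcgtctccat
Srd5a2: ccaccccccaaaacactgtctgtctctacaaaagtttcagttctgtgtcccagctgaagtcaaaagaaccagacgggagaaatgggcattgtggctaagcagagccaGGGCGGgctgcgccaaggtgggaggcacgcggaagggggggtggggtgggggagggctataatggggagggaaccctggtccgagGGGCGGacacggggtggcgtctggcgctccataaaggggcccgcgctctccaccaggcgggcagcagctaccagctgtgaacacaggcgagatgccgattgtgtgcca

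Kap held TATAAA, whose first base lay at -31 from the RefSeq gene start, and was the only one of the 6 to hold it on either strand. Among all 32851 promoters of this length in the table, 13.6% held it. The GC-box letters were found on either strand 4 times in Odc1, 4 times in Srd5a1, 2 times in Srd5a2, 1 time each in Kap and Hsd17b11 and not in Gusb, against 35.7% of all promoters with at least 1. Base composition differed widely, with 78% G or C in Odc1, 62.7% in Srd5a2 and 44.7% in Kap, around a median of 52.7% over all promoters. AGAACA, the letters of 1 arm of the hormone response element bound by steroid receptors, and its reverse complement TGTTCT were in none of these 6 windows, against 19% of all promoters. Only 0.00913% of promoters held AGAACA and TGTTCT spaced by 3 bases. A match in letters is a description of the sequence, and these windows hold no enhancers farther away.

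The tissue labels were checked against marker genes before the results were read. The summed TPM of the S1 markers (Slc5a2, Slc5a12 and Slc2a2) had a median of 45.8 in PTS2, which was 5.34% of the kidney mean. The S2 markers Slc22a6 and Slc22a8 summed to 368 to 1149 in PTS2 and to 719 to 781 in kidney, and the S3 markers (Slc7a13, Slc22a7 and Atp11a) to 2469 to 4418 in PTS2 and 1232 to 1658 in kidney. Within these sums the markers differed from one another. The log2 differences, PTS2 minus kidney, were -8.57 for Slc5a2 and -6.76 for Slc5a12, but -1.29 for Slc2a2. Slc22a8 was lower in PTS2 (-2.21, limma adjusted p = 0.00199), while Slc22a6 was not called (0.17, adjusted p = 0.703). Thus the tubules labelled PTS2 were low in S1 markers, least so in Slc2a2. They carried both S2 and S3 markers, with the S2 marker Slc22a8 below kidney. Markers of the distal convoluted tubule reached at most 0.54 TPM in PTS2, and endothelial and macrophage marker sums were 20.1 to 81.6 and 2.78 to 12.1, against kidney means of 256 and 77.7. Library m3 replicate 3 stood apart with a thick ascending limb marker sum of 1441 TPM, against at most 55.8 in the other 11 tubules and a kidney mean of 2569. Library m3 replicate 4 stood apart in the members themselves, and whole kidney replicate 2 stood apart for 4 of them, as given below with values without these libraries.

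Kap, kidney androgen-regulated protein, was the most abundant gene of the PTS2 tubules and the gene of rank 2 in whole kidney. It gave 30086, 29749.9 and 29581 TPM in kidney replicates 1 to 3. The 12 tubules ranged from 37424 to 63454 TPM, with a median of 58406. Every tubule was above every kidney library, and the kidney libraries differed little from one another, with a coefficient of variation of 0.863%. Mean TPM was 56229 ± 7334 (SD, n = 12) in the tubules against 29805 ± 257 (SD, n = 3) in kidney, a ratio of 1.89, and the log2 difference of TPM + 1 was 0.90 ± 0.14 (SE). Kap thus made up 5.62% of all TPM in the tubules and 2.98% in whole kidney. In whole tissue, fewer cells that express a gene and less of its RNA per cell cannot be told apart. The lowest tubule value, 37424 TPM, came from m3 replicate 4, and the next lowest was 48226 TPM in m1 replicate 1.

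Odc1, ornithine decarboxylase, makes putrescine, the first step of polyamine synthesis. Its kidney values were 704, 1115 and 616 TPM in replicates 1 to 3, and its tubule values ran from 343 to 1853 TPM, with a median of 722. The kidney values lay inside the tubule range. The means were 799.5 ± 399.8 TPM (SD, n = 12) and 812 ± 267 TPM (SD, n = 3), and the log2 difference of TPM + 1, PTS2 minus kidney, was -0.12 ± 0.38 (SE, limma adjusted p = 0.819). Unlike Kap, Odc1 had a large spread among tubules, with a coefficient of variation of 50.0%, and the tubules are separated by set below.

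Gusb encodes the lysosomal enzyme beta-glucuronidase. It gave 40.2, 41.7 and 37.4 TPM in the kidney replicates and 44.0 to 71.0 TPM, with a median of 62.4, in the tubules. No tubule overlapped the kidney range. Mean TPM was 60.9 ± 9.10 (SD, n = 12) in the tubules against 39.8 ± 2.16 (SD, n = 3) in kidney, a ratio of 1.53. The log2 difference was 0.59 ± 0.13 (SE, limma adjusted p = 0.00147), and Gusb passed the threshold in each of the alternatives tried.

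Srd5a1 and Srd5a2 encode the type 1 and type 2 steroid 5-alpha-reductases. Srd5a1 gave 13.9, 22.95 and 16.65 TPM in kidney and 12.6 to 25.5 TPM, with a median of 15.7, in the tubules. The kidney values fell inside the tubule range, and the log2 difference was -0.08 ± 0.18 (SE, limma adjusted p = 0.740). Srd5a2 gave 8.30, 37.0 and 7.68 TPM in kidney and 3.39 to 62.7 TPM, with a median of 11.8, in the tubules, again with overlap. Its log2 difference was -0.06 ± 0.64 (SE, limma adjusted p = 0.943). Mean levels per transcript length were close, 16.8 ± 3.52 TPM for Srd5a1 and 16.96 ± 15.9 TPM for Srd5a2 in PTS2 (SD, n = 12), but the spread of Srd5a2 was far wider. The coefficient of variation among tubules was 93.6% for Srd5a2 and 21.0% for Srd5a1. Srd5a1 overlaps Nsun2 on the other strand (44.7 TPM in PTS2 and 47.8 in kidney), and whether strand was used in counting is not given in the sources used here, so reads of the overlap cannot be told apart.

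Hsd17b2 encodes type 2 17-beta-hydroxysteroid dehydrogenase, which oxidizes testosterone to androstenedione and estradiol to estrone. Its kidney values were 23.9, 21.1 and 14.5 TPM. The tubules ranged from 55.9 to 96.0 TPM, with a median of 74.5, so that each tubule held more than the highest kidney library. Mean TPM was 75.0 ± 12.0 (SD, n = 12) in the tubules against 19.8 ± 4.79 (SD, n = 3) in kidney. The ratio of 3.78 was the widest of the 7 genes, and the log2 difference was 1.88 ± 0.17 (SE). Hsd17b11, a family member that acts on androstane diols and sits on lipid droplets, gave 32.6, 50.4 and 29.6 TPM in kidney and 33.2 to 68.2 TPM, with a median of 48.1, in PTS2. Its log2 difference was 0.43 ± 0.21 (SE, limma adjusted p = 0.102) and the groups overlapped. Without whole kidney replicate 2 the Hsd17b11 difference was 0.66 (adjusted p = 0.0261), and with median-of-ratios and quantile scaling it was 0.72 and 0.69 (adjusted p = 0.0124 and 0.0139). The ratio of Hsd17b2 to Hsd17b11 was 0.840 to 2.78 in tubules and 0.417 to 0.732 in kidney, without overlap. Because Hsd17b2 was chosen by its difference from kidney, this ratio partly restates that choice and is a description.

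**Figure D1:**
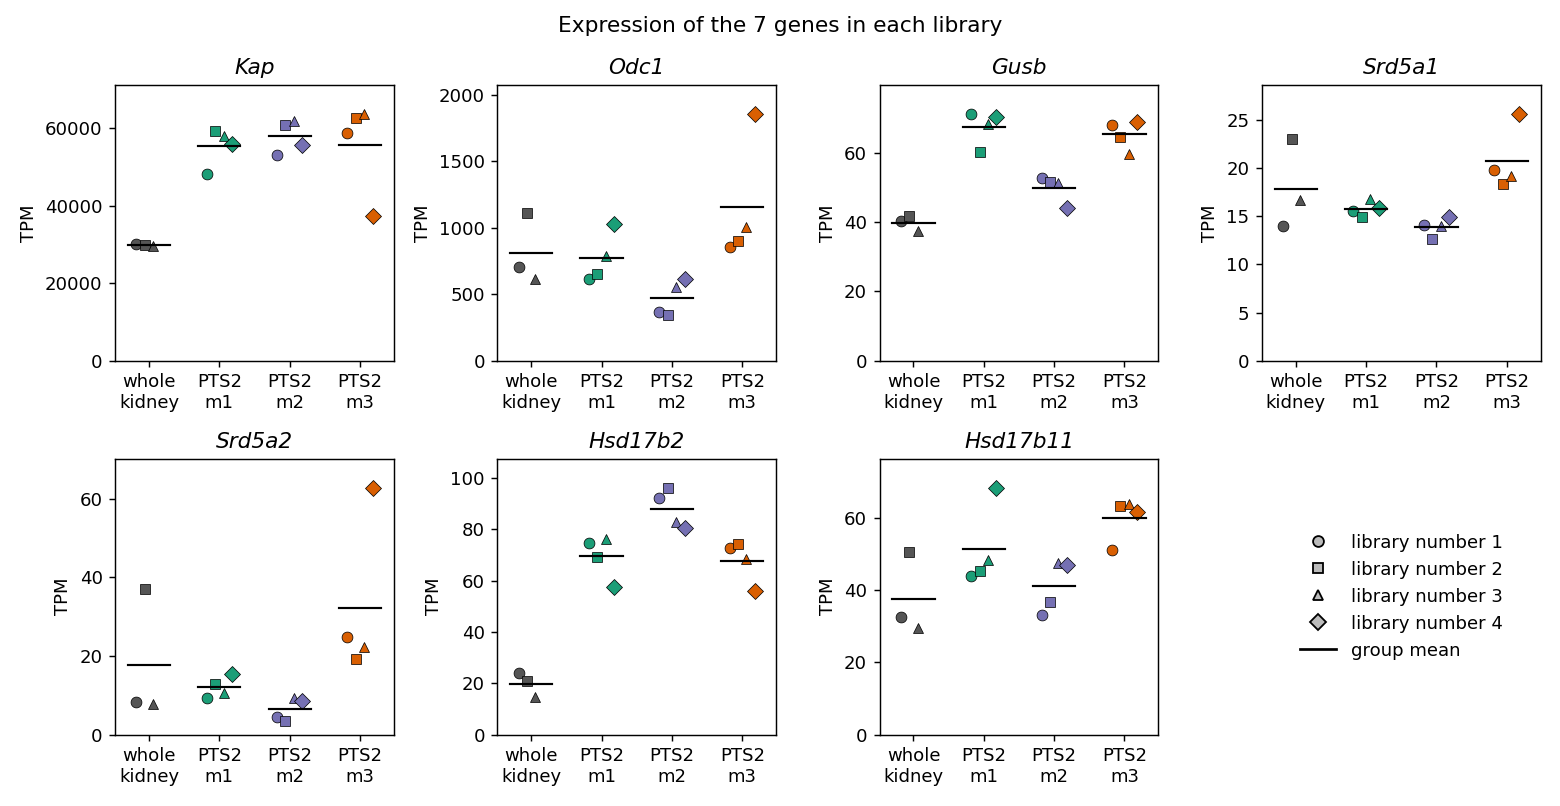
Expression of each of the 7 genes in TPM (vertical axes, from 0) in the 3 whole kidney libraries and the 4 libraries of each PTS2 set; marker shapes give the library number and horizontal lines the group means. All 12 tubules lie above the kidney libraries for Kap, Gusb and Hsd17b2. Among the PTS2 sets, m2 has the lowest mean for Odc1, Gusb, Srd5a1, Srd5a2 and Hsd17b11.

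In total 3 of the 7 genes (Kap, Gusb and Hsd17b2) were called higher in PTS2, none was called lower and 4 did not pass. Over all 12039 genes tested, 8.69% were called higher and 38.2% lower, and 37.8% had no overlap between the groups. Since Kap and Hsd17b2 were chosen by this contrast, the count of 3 and the median over the 7 are descriptions, without a test. The median log2 difference was -0.27 over all genes tested and 0.43 over the 7. The members not chosen by it stood at -0.12 (Odc1), -0.08 (Srd5a1), -0.06 (Srd5a2), 0.43 (Hsd17b11) and 0.59 (Gusb). Scaling bears on these signs: the median of all genes became 0.00 after median-of-ratios rescaling and 0.16 after quantile normalization, where 2596 of 5112 calls and 3863 of 6011 calls were of genes higher in the tubules. Kap, Gusb and Hsd17b2 stayed higher under both, with differences of 1.195, 0.87 and 2.16 after median-of-ratios rescaling. The signs of the 3 uncalled genes near 0 moved: Srd5a1 and Srd5a2 became 0.20 and 0.20 with median-of-ratios and 0.37 and 0.47 with quantile scaling, and Odc1 became 0.18 and -0.27.

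Whole kidney replicate 2 exceeded the mean of replicates 1 and 3 by 4.63-fold for Srd5a2, 1.69-fold for Odc1, 1.62-fold for Hsd17b11 and 1.5005-fold for Srd5a1. These are 4 of the 7 genes, while 3.24% of 11832 kidney genes reached a ratio of 1.5. Kap, Gusb and Hsd17b2 stood at 0.997, 1.07 and 1.10. Among 9 other genes known as androgen-induced, 4 reached 1.5, namely Adh1 (1.74), Slco1a1 (1.57), Nudt19 (1.55) and Cyp2j13 (1.55). In the same library the S3 marker sum was 1658 TPM against 1509 and 1232 in the others, and the S2 sum was 772 against 781 and 719; their part in the result was not tested. Without this library the PTS2 minus kidney difference of Srd5a2 was 0.63 (limma adjusted p = 0.474), and those of Odc1 and Srd5a1 were 0.14 (0.826) and 0.11 (0.681).

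The 3 tubule sets differed in several of the 7 genes, and m2 was the low set for 5 of them. Odc1 gave 614, 652, 792 and 1029 TPM in m1, 370.2, 343, 559 and 619 TPM in m2, and 855, 898, 1009.7 and 1853 TPM in m3. All m3 libraries were above all m2 libraries, and m1 lay between and overlapped both. The mean of m3 was 2.44 times that of m2. In the F test over the 3 sets Odc1 had a limma adjusted p of 0.0438, and the log2 difference of m3 minus m2 was 1.26 ± 0.26 (SE, adjusted p = 0.0244).

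Srd5a2 showed the same order of sets with a wider gap. It gave 9.39, 13.0, 10.7 and 15.48 TPM in m1, 4.56, 3.39, 9.39 and 8.46 TPM in m2, and 24.9, 19.2, 22.4 and 62.7 TPM in m3. The m3 libraries were above all others, and the mean of m3 was 5.01 times that of m2, a difference of 2.09 ± 0.35 on the log2 scale (SE). Srd5a1 gave 14.89 to 16.7 TPM in m1, 12.6 to 14.95 TPM in m2, and 19.8, 18.4, 19.2 and 25.5 TPM in m3. Here too every m3 library was above every other tubule. The F test gave Srd5a1 a limma adjusted p of 0.0342, and m3 minus m2 was 0.54 ± 0.11 (SE, adjusted p = 0.0209). Srd5a1 exceeded Srd5a2 in all libraries of m1 and m2, with ratios of 1.02 to 3.72. In all 4 libraries of m3 Srd5a2 exceeded Srd5a1, with ratios of 0.407 to 0.957. Because Srd5a2 was chosen by its m3 minus m2 difference, this change of ratio partly restates that choice and is a description.

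Gusb was low in m2 alone, with 52.6, 51.6, 51.3 and 44.0 TPM, against 60.2 to 71.0 TPM in m1 and 59.5 to 68.9 TPM in m3. Neither of the other sets overlapped m2. The F test gave a limma adjusted p of 0.0197, m2 minus m1 was -0.43 ± 0.08 (SE, adjusted p = 0.0432) and m3 minus m2 was 0.38 ± 0.08 (SE, adjusted p = 0.0360). Hsd17b11 gave 43.9 to 68.2 TPM in m1, 33.2 to 47.6 TPM in m2 and 51.2 to 63.8 TPM in m3, with an F test adjusted p of 0.153 and an m3 minus m2 difference of 0.55 ± 0.15 (SE, adjusted p = 0.107).

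Hsd17b2 ran the other way. It gave 92.2, 96.0, 82.8 and 80.4 TPM in m2, 74.7, 69.3, 76.3 and 57.3 TPM in m1 and 72.6, 74.3, 68.3 and 55.9 TPM in m3. The m2 libraries were above all others, but the F test did not pass (limma adjusted p = 0.139), and m3 minus m2 was -0.37 ± 0.11 (SE, adjusted p = 0.146). Kap had similar set means of 55313, 57842 and 55532 TPM for m1, m2 and m3, the F test gave an adjusted p of 0.926, and m3 minus m2 was -0.09 ± 0.15 (SE). After quantile normalization that difference became 0.00, since Kap is then the top value of each tubule.

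Srd5a2 was chosen by its m3 minus m2 difference and is left out of the counts that follow. Of the other 6 genes, 3 (Odc1, Gusb and Srd5a1) were called among the sets by the F test, against 3.02% of 11300 genes tested. For m3 against m2 these 3 were called and the background was 1.97%; 5 of the 6, all but Kap, had no overlap between these sets, against 9.6% of all genes tested. For m3 against m1 none of the 6 was called (3.17% of all genes), and 1, Srd5a1, did not overlap (9.04% of all genes). For m2 against m1 only Gusb was called (0.54% of all genes), and 2, Gusb and Hsd17b2, did not overlap (5.3% of all genes). Leaving out Srd5a2 does not free these counts from its choice. Across the tubules Odc1 and Srd5a1 varied with Srd5a2 (Pearson r = 0.960 and 0.950), and Hsd17b2 ran against it (-0.854). The relation was weaker for Hsd17b11 (0.798), Gusb (0.587) and Kap (-0.441). The counts are therefore descriptions of related genes, and no excess over the shares of all genes is claimed. The calls of Odc1, Gusb and Srd5a1 stood near the threshold. Leaving out 1 tubule at a time gave adjusted p-values of 0.0355 to 0.128 for Odc1, 0.0103 to 0.0724 for Gusb and 0.0338 to 0.0958 for Srd5a1 in the F test. Odc1 lost its call without m1 replicate 2 or 3, without m2 replicate 1, 2 or 3, and without m3 replicate 1, 2 or 3. Gusb lost its call without m2 replicate 2, 3 or 4, and Srd5a1 without m1 replicate 3 or 4, any m2 library, or m3 replicate 1, 3 or 4. The differences themselves kept their size, at 1.00 to 1.40 for Odc1 and 0.44 to 0.59 for Srd5a1 (m3 minus m2, same omissions). Without m3 replicates 3 and 4 together, Odc1 stood at 0.94 (adjusted p = 0.170), Srd5a1 at 0.43 (0.158), Gusb at 0.41 (0.148) and Srd5a2 at 1.71, also over 2 remaining m3 libraries.

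Within every set, library 4 was the highest for Odc1 and the lowest for Hsd17b2. In a fit with set as a term, Odc1 differed among the 4 numbers (limma F test, adjusted p = 0.0103), and number 4 exceeded number 1 by 0.87 ± 0.12 on the log2 scale (SE, adjusted p = 0.00263). Odc1 was the 1 member called, against 2.71% of all genes, and its F test stayed at 0.00373 to 0.0396 when tubules were left out in turn. The call was lost with no filter on low values (0.119) and without the set term (0.569). The difference of number 4 minus number 1 was 0.46 ± 0.12 for Hsd17b11 (SE, adjusted p = 0.0574), -0.31 ± 0.08 for Hsd17b2 (SE, adjusted p = 0.0634) and 0.91 ± 0.29 for Srd5a2 (SE). Library 4 also held the highest S2 marker sum of each set, with 1149, 892 and 1024 TPM in m1, m2 and m3, against at most 762, 693 and 446 TPM in the other libraries of the same set. The part of these markers in the Odc1 result was not tested.

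Across the 12 tubules, 35 relations among the 7 genes and the S2 and S3 marker sums were computed on log2(TPM + 1), with permutation p-values adjusted over all 35. Values of Srd5a2 pooled over the sets include the difference by which it was chosen, so its pooled correlations are descriptions without a p, and it was tested only with set means removed. Odc1 and Srd5a2 varied together, with Pearson r = 0.960 and Spearman rho = 0.907 over the 12 tubules. Without the libraries farthest from the median of Odc1 (m3 replicate 4 and m2 replicate 2), r was 0.892. With set means removed r was 0.916 (exact permutation within sets, 13824 arrangements, p = 0.00557, adjusted p = 0.0307). Odc1 and Hsd17b2 moved in opposite directions, with r = -0.918 and rho = -0.923 (permutation test, two-sided, n = 12, adjusted p = 0.000525 and 0.00035). That r was -0.833 without the same pair of libraries and -0.895 within sets (exact permutation p = 0.00412, adjusted p = 0.0289). These relations were thus present within sets as well as between them. The within-set permutations, here and below, shuffled each set separately, as if library numbers were unrelated between sets. Deviations from set means over all genes had a mean r of 0.1433 for same-numbered tubules of different sets and -0.0481 for other pairs. The within-set p-values may therefore be too small.

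Srd5a1 and Srd5a2 had r = 0.950 and rho = 0.904, and r = 0.884 without m3 replicates 4 and 1. With set means removed r was 0.817, which did not pass after adjustment (exact permutation p = 0.0268, adjusted p = 0.0625). Srd5a2 and Hsd17b2 had r = -0.854 and rho = -0.886, with r = -0.685 without m3 replicate 4 and m2 replicate 2, and -0.875 within sets (exact permutation p = 0.00094, adjusted p = 0.0165). Gusb, in contrast, had r = 0.620 with Odc1 over all tubules (rho = 0.559, permutation adjusted p = 0.0905 and 0.169), 0.557 without m3 replicate 4 and m2 replicate 2, and -0.03 within sets (exact permutation p = 0.920). Kap had r = -0.448 and rho = -0.014 with Odc1 (permutation adjusted p = 0.230 and 0.973), which became 0.288 without m3 replicate 4 and m1 replicate 1. The negative value rests on those libraries.

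**Figure D2:**
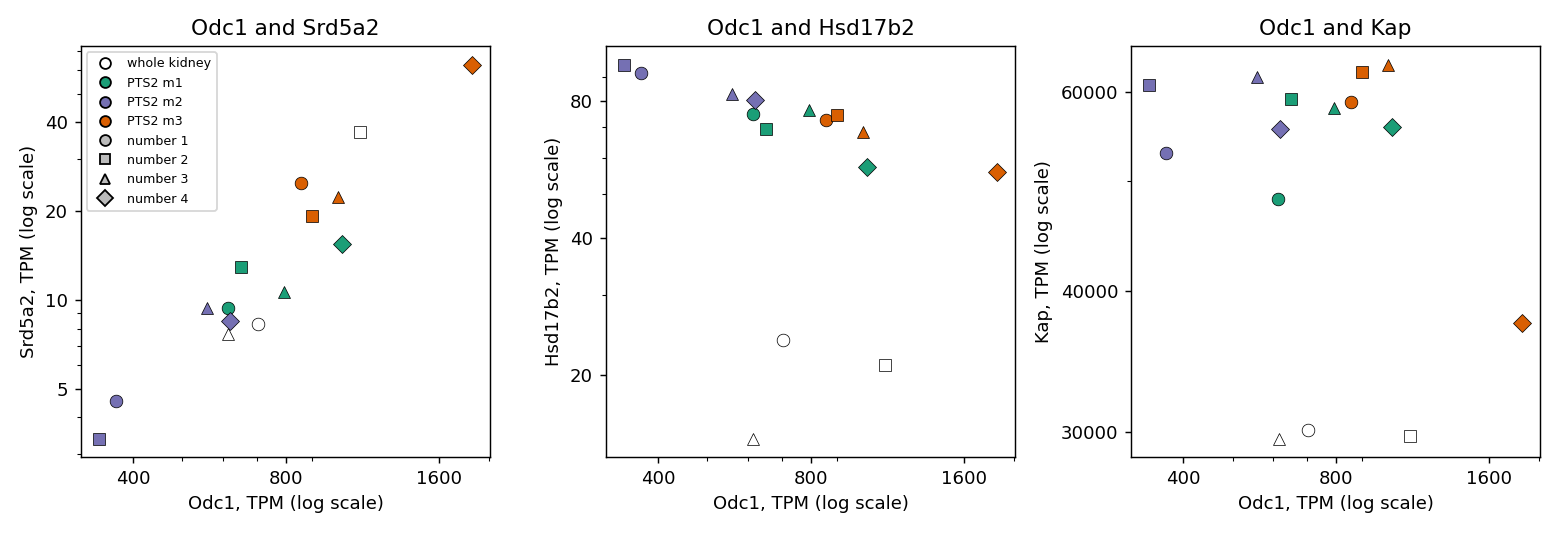
Odc1 in TPM (horizontal, log scale) against Srd5a2, Hsd17b2 and Kap in TPM (vertical, log scales), with 1 point per library; filled colours are the PTS2 sets, open points whole kidney, and shapes the library number. Over the 12 tubules r is 0.960 for Srd5a2 and -0.918 for Hsd17b2, and m3 replicate 4 is the point with the highest Odc1 and the lowest Kap among tubules.

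The S2 marker sum moved with several of the same genes within sets. With set means removed, it had r = 0.977 with Odc1 (exact permutation p = 0.000579, adjusted p = 0.0165), 0.892 with Srd5a2 (p = 0.0123, adjusted p = 0.0478) and -0.878 with Hsd17b2 (p = 0.00615, adjusted p = 0.0307). Over all 12 tubules, with set differences included, these values were 0.475, 0.294 and -0.601 (rho = 0.462, 0.193 and -0.448), with permutation adjusted p of 0.196 for Odc1 and 0.107 for Hsd17b2. Without the libraries farthest from each gene's median, the pooled r fell to 0.161, -0.20 and -0.19. The S3 marker sum had r = -0.945 with Hsd17b11 within sets (exact permutation p = 0.00145, adjusted p = 0.0169), -0.811 with Odc1 (p = 0.00224, adjusted p = 0.0196) and 0.789 with Hsd17b2 (p = 0.00846, adjusted p = 0.0370). Pooled, they were -0.512, -0.355 and 0.495 (rho = -0.413, -0.301 and 0.224), with permutation adjusted p of 0.165, 0.341 and 0.177, and -0.03, -0.362 and 0.156 without the farthest libraries. The set order of Odc1 was not that of the S2 sum. The mean of Odc1 was highest in m3, while 3 of its 4 libraries had S2 sums of 370.4 to 446 TPM, below all 4 libraries of m1. The S3 sums of the sets overlapped, at 2469 to 4098 TPM in m1, 3053 to 4418 TPM in m2 and 3393 to 4296 TPM in m3. The part of either sum in the set differences was not tested.

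Among the 6445 genes whose tubule mean reached 10 TPM, those most like each member were ranked by Pearson r over the 12 tubules. Srd5a2 (0.960), Nr1h4 (0.959) and Slco1a1 (0.957) were closest to Odc1, and Srd5a2 (0.950), Xbp1 (0.949) and Nmrk1 (0.948) to Srd5a1. Xbp1 (0.949) also came after Odc1 and Srd5a1 for Srd5a2. Nr1h4 is the bile acid receptor, Slco1a1 an organic anion transporter known as androgen-induced, and Xbp1 a transcription factor of the unfolded protein response. Closest to Kap were Cst3 (0.959) and the ribosomal protein genes Rpl36 (0.946) and Rpl32 (0.946). Gusb was nearest to Plscr1 (0.919), Tmem51 (0.915) and Keg1 (0.914), Hsd17b2 to Car5a (0.947), Dpp7 (0.946) and Ech1 (0.919), and Hsd17b11 to Gm15895 (0.906), Akr1b3 (0.903) and Anxa5 (0.890). These rankings describe 12 libraries that share sets. With set means removed, the values of Gusb fell to 0.742, 0.545 and 0.576, while those of Kap stayed at 0.945 to 0.964. When m3 replicate 4 was left out instead, Kap had 0.931 with Cst3, 0.803 with Rpl36 and 0.844 with Rpl32. The values of Gusb were then 0.912, 0.912 and 0.925.

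Of 6 steroid receptor genes listed, 4 were tested against kidney, of which 1 was higher, 2 were lower and 1 did not pass. The list median was -0.37, beside -0.27 for all genes. For this and the later lists, the shares of all genes tested were 8.69% called higher, 38.2% called lower and 3.02% called among the sets. Esr1, an estrogen receptor, was higher in PTS2 (10.5 against 5.63 TPM, log2 difference 0.77, adjusted p = 0.0131), though not without whole kidney replicate 2 (0.0808). Nr3c1, the glucocorticoid receptor, was lower (15.8 against 31.9 TPM, -0.99, adjusted p = 0.000189), and so was Nr3c2, the mineralocorticoid receptor (0.422 against 4.11 TPM, -1.88, adjusted p = 2.71e-06). With a tubule mean under 1 TPM, Nr3c2 passed the filter only through kidney. The filter therefore set its direction, which the p does not test. None of the 3 receptors tested among the sets was called. Of 8 receptor chaperones and coactivators, none was higher, 3 were lower and 5 did not pass, with a median of -0.18; with median-of-ratios rescaling 2 were higher and 2 lower, and with quantile normalization none was higher and 1 lower. Among the sets 1 of the 8 was called, the chaperone Hsp90aa1 (439.7, 365 and 326 TPM in m1, m2 and m3, F test adjusted p = 0.0241), a call lost in 7 of 20 alternatives. The coactivators Ncoa1 and Ncoa2 were lower (-0.67 and -0.48, adjusted p = 0.00475 and 0.0210), but both lost the call with quantile normalization, and Ncoa2 also with median-of-ratios rescaling and without kidney replicate 1 or 3. Hsp90ab1, the most abundant chaperone of the list, was at 1372 and 1376 TPM (0.00, adjusted p = 0.971). Fkbp5, a chaperone of steroid receptors and a known glucocorticoid and androgen target, was lower in PTS2 (33.4 against 78.2 TPM, -1.19, adjusted p = 0.000666).

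Of 9 other kidney genes known as androgen-induced, 4 were higher in PTS2, none was lower and 5 did not pass, with a median of 0.73. Over all genes tested 8.69% were higher and 38.2% lower, with a median of -0.27. This list was chosen with earlier results of these data known. Nudt19, a peroxisomal coenzyme A hydrolase, stood at 4027 ± 888 TPM in the tubules (SD, n = 12) against 2009 ± 540.0 TPM in kidney (SD, n = 3), without overlap (1.00 ± 0.19, SE, adjusted p = 0.000497). Acsm3, a medium-chain acyl-coenzyme A synthetase, was at 2250 and 1121 TPM, also without overlap (0.99 ± 0.18, SE, adjusted p = 0.000280). Adh1 and Slco1a1 were called as well, at 0.74 and 0.73 (adjusted p = 0.0102 and 0.0462), but Adh1 lost the call without whole kidney replicate 1 or 3 and with quantile normalization, and Slco1a1 in 14 of 26 alternatives. With median-of-ratios rescaling 6 of the 9 were higher, and with quantile normalization 2. Cyp4b1, the most abundant at 8476 TPM in the tubules and 6348 TPM in kidney, did not pass (0.38, adjusted p = 0.220). Among the sets, 2 of the 9 were called, against 3.02% of all genes tested. Nudt19 gave means of 3240, 3690 and 5150 TPM in m1, m2 and m3 (F test adjusted p = 0.00135), and Adh1 1419, 1326 and 2056 TPM (0.0148, and 0.105 without m3 replicates 3 and 4 together). Both were thus highest in m3, as Odc1, Srd5a1 and Srd5a2 were.

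Of 3 kidney genes known as higher in females, none was called against kidney (median 0.88; 1 was higher with median-of-ratios rescaling and 2 with quantile normalization), and 2 were called among the sets, Cyp4a14 and Slc7a12 (F test adjusted p = 0.0359 for Slc7a12, lost in 9 of 20 alternatives). Cyp4a14, a fatty acid hydroxylase, ran opposite to Srd5a2 between m2 and m3, with 211.7 ± 42.2 TPM in m2, 49.2 ± 18.4 TPM in m1 and 12.1 ± 0.891 TPM in m3 (SD, n = 4 each), without overlap. Slc7a12, an amino acid transporter, did not follow Cyp4a14: it averaged 5.30, 18.4 and 18.8 TPM in m1, m2 and m3, with an m3 minus m2 difference of 0.16 (adjusted p = 0.968) and an m3 minus m1 difference of 1.61 (adjusted p = 0.0270). Prlr, the prolactin receptor, was not called among the sets (adjusted p = 0.762). In kidney replicate 2, where Srd5a2 was high, the ratio to the mean of the others was 0.250 for Cyp4a14, 0.662 for Prlr and 1.74 for Slc7a12.

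Of the 10 other 17-beta-hydroxysteroid dehydrogenase genes listed, 9 were in the table used and 4 passed the filter; 1 was higher in PTS2, 1 lower and 2 did not pass, with a median of 0.16; with median-of-ratios rescaling 3 were higher and none lower. Hsd17b4, a peroxisomal enzyme of fatty acid oxidation, was higher (224 against 169 TPM, 0.39, adjusted p = 0.00573). Hsd17b12, which acts in fatty acid elongation, was lower (94.5 against 121.4 TPM, -0.37, adjusted p = 0.0155), a call lost with median-of-ratios rescaling and without kidney replicate 2 or 3. Hsd17b10, the most abundant of the family at 293 and 260.0 TPM, did not pass (0.17, adjusted p = 0.0808). Hsd17b3, the testis enzyme that makes testosterone, was listed at 0 in all 15 libraries. None of the 4 was called among the sets.

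Of 17 other steroid-converting enzymes, 16 were in the table used and 8 were tested; 3 were higher, 2 lower and 3 did not pass, with a median of 0.41. Hsd3b3 and Akr1c14, a 3-beta- and a 3-alpha-hydroxysteroid dehydrogenase, were higher in PTS2 at 0.63 and 0.95 (adjusted p = 0.000155 and 0.00169), both without overlap. Hsd3b2 was lower (69.5 against 109.9 TPM, -0.67, adjusted p = 0.00449), a call lost with median-of-ratios rescaling (0.0817). Akr1c21, a 17-alpha-hydroxysteroid dehydrogenase, was the most abundant at 2832 and 2382 TPM (0.25, adjusted p = 0.0236), a call lost with quantile normalization and without kidney replicate 2. Hsd11b2, which inactivates glucocorticoids in the distal nephron, averaged 0.166 TPM in the tubules against 87.8 TPM in kidney (-6.26, adjusted p = 8.10e-15). Like Nr3c2, it passed the filter only through kidney, so its direction was set by the filter. Srd5a3, the third gene named as a 5-alpha-reductase, gave 19.9 ± 2.18 and 22.8 ± 1.79 TPM (SD, n = 12 and 3), with a difference of -0.19 (adjusted p = 0.154). Among the sets 2 of 7 tested were called, Hsd11b1 (569, 389.6 and 937 TPM in m1, m2 and m3, F test adjusted p = 0.0367) and Akr1c21 (0.0386); both lost the call when single libraries were left out.

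**Figure D3:**
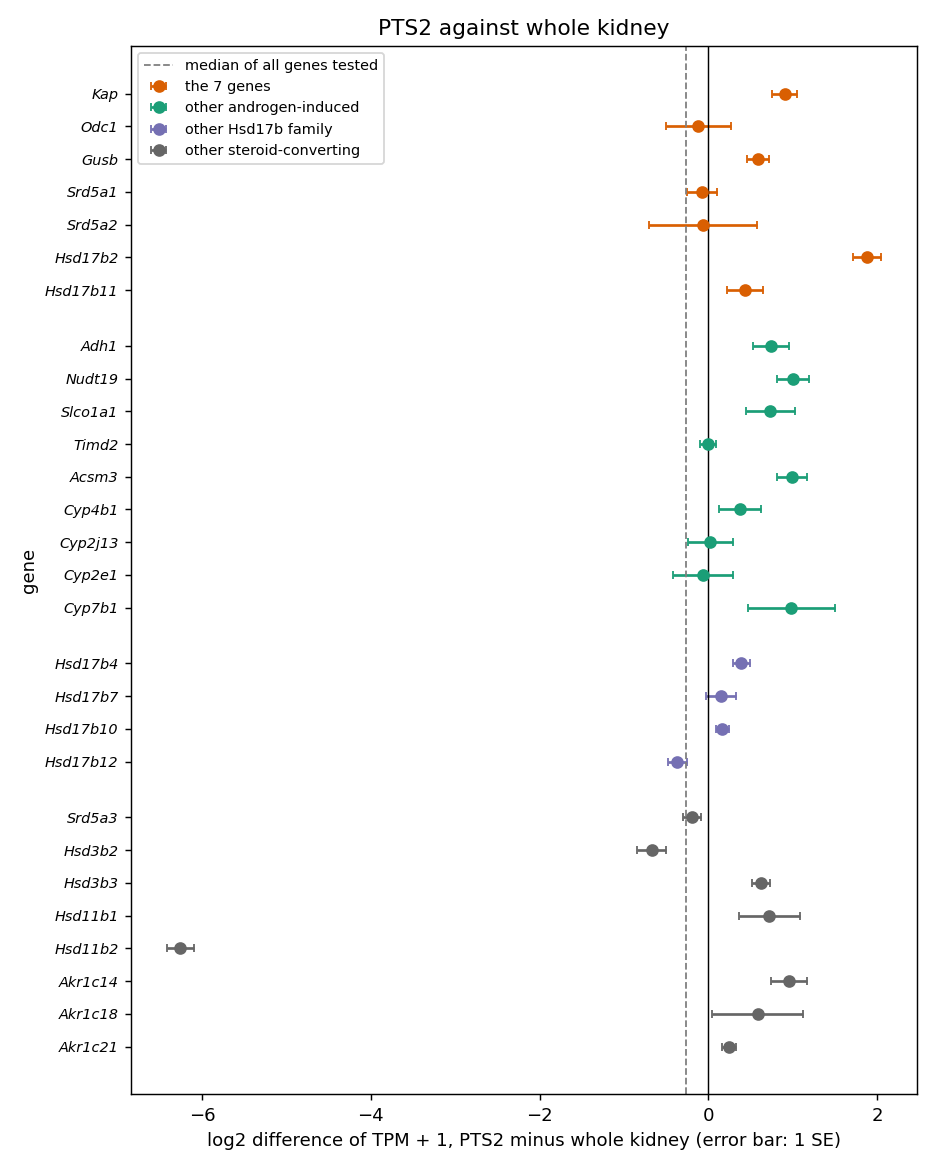
Log2 difference of TPM + 1, PTS2 minus whole kidney (horizontal axis), for the 7 genes and for the tested genes of 3 lists (other androgen-induced genes, other Hsd17b genes and other steroid-converting enzymes), with error bars of 1 SE; the dashed line is the median of all genes tested, -0.27. Hsd17b2 lies farthest right at 1.88 and Hsd11b2 farthest left at -6.26.

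Odc1 and Gusb were set beside the genes of their own pathways. In the polyamine pathway 11 of 13 genes were tested; 1 was higher in PTS2 (Sat1, which acetylates polyamines, 607 against 512 TPM), 3 were lower (Oaz2, Amd1 and Smox) and 7 did not pass, with a median of -0.08. Sat1 lost its call with quantile normalization and without kidney replicate 1 or 3, and Oaz2 and Smox lost theirs with median-of-ratios rescaling. None of the 11 was called among the sets, where Odc1 was. Amd1, the S-adenosylmethionine decarboxylase, was at 6.23 and 10.7 TPM (-0.70, adjusted p = 0.000475), a call lost with quantile normalization (0.538). Oaz1, the antizyme that directs the Odc1 protein to degradation, was at 597 ± 41.5 and 523 ± 17.6 TPM (SD, n = 12 and 3; adjusted p = 0.0548). Of 16 lysosomal glycosidases, sulfatases and the Gusb anchor, 3 were higher (Galns at 1.05 and Glb1 at 0.66 among them), 7 lower and 6 not called. Their median was -0.14, and none was called among the sets. Over all genes tested 8.69% were called higher and 38.2% lower, and no excess of lower genes is claimed for either list. Ces1e, the esterase that anchors beta-glucuronidase in the endoplasmic reticulum, was lower in PTS2 (-1.52, adjusted p = 0.00105), and Hexa, a lysosomal glycosidase gene, was at 2.30 and 58.1 TPM (-4.20, adjusted p = 1.66e-10). With median-of-ratios rescaling the lysosomal counts became 6 higher and 4 lower, and the polyamine counts 3 higher and 1 lower.

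**Figure D4:**
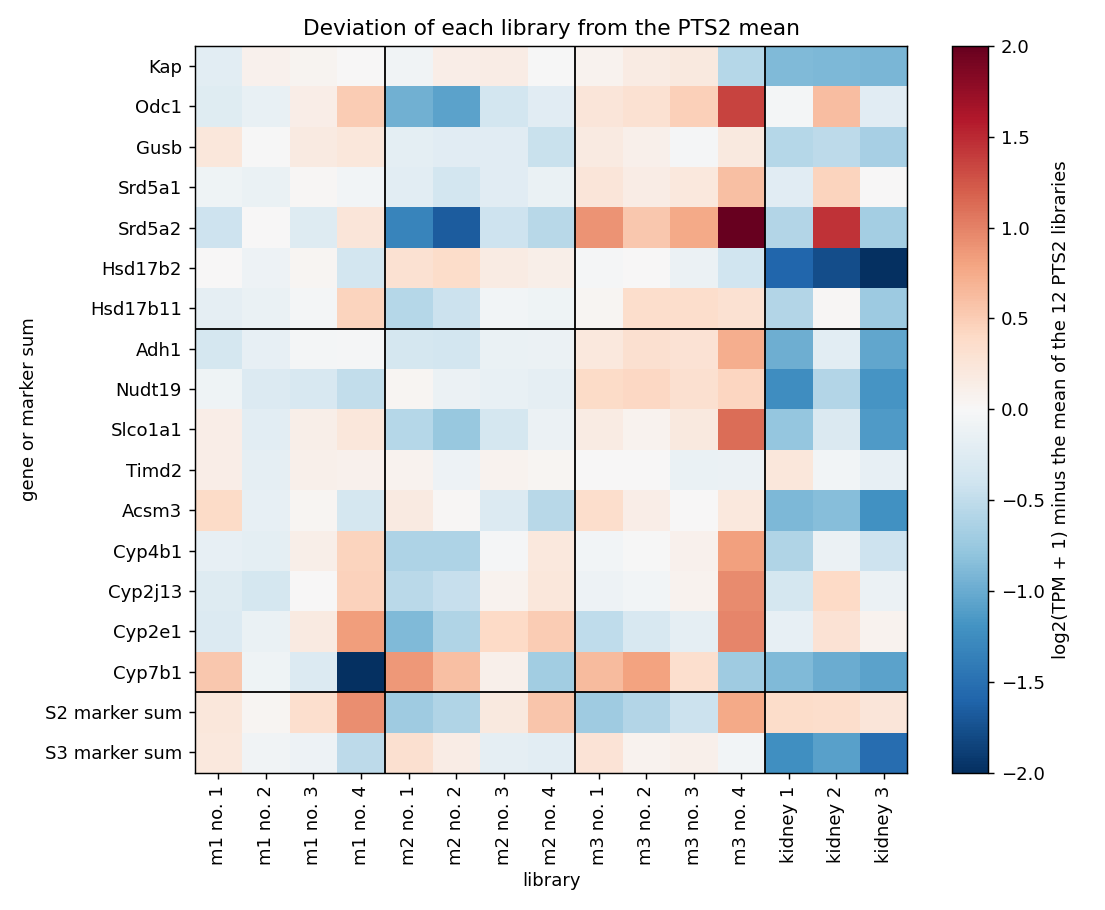
Each library's log2(TPM + 1) minus the mean of the 12 PTS2 libraries, for the 7 genes, 9 other genes known as androgen-induced and the S2 and S3 marker sums; red is above and blue below that mean, and values beyond 2 share the end colours. Odc1 and Srd5a2 are red in m3 and in kidney replicate 2 and blue in m2, and the S2 marker sum is highest in library 4 of each set.

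By the GENCODE M21 annotation (GRCm38) Kap lies on chromosome 6 from 133849851 to 133853762, Odc1 on chromosome 12 from 17544794 to 17551505, and Srd5a2 on chromosome 17 from 74016955 to 74047916. Srd5a1 spans chromosome 13 from 69573449 to 69611442, and Hsd17b2 chromosome 8 from 117701904 to 117759027. Gusb and Hsd17b11 are both on chromosome 5, from 129989011 to 130003049 and from 103989762 to 104021919. The gene starts of Kap, Odc1 and Srd5a2 differ between this annotation and the RefSeq promoter windows. By the GENCODE span of Kap, its TATAAA letters lie inside the gene. Expression was counted over whole genes, so no exon or isoform is resolved here.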

How the data were processed

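The authors deposited 1 table of TPM values, with STAR 2.5.1b, RSEM 1.2.31 and build GRCm38.p5 named in the submitters' processing notes, without a role for each. Per the labels, cDNA was made from polyA RNA with a kit for very low input. The annotation release and use of strand are not given in the sources used here. Columns were matched to libraries by name, and TPM keep no depth.

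Tests used limma 3.58.1 (R 4.3.3, trended eBayes) on log2(TPM + 1), for genes whose mean reached 1 TPM, with Benjamini-Hochberg adjustment over all genes tested and a threshold of 0.05. PTS2 against whole kidney used 15 libraries with set as a correlated block (estimated correlation 0.0957). Sets and numbers were compared over 12 tubules, the numbers with set as a term. A log2 difference on this scale understates changes of low genes. The fits were tested on simulated data. Correlations used permutation tests in Python 3.11.15 with 100000 permutations, or all 13824 arrangements within sets.

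The members and gene lists were chosen with earlier results of these data known. List genes were named if among the 3 most abundant, or among the 3 called without overlap that had the largest differences, and Fkbp5, Adh1, Cyp2j13, Cyp7b1, Hsd17b3, Hsd3b3, Srd5a3 and Akr1c18 were named after their values were seen; for each member the 3 genes of highest r were named. Some results are not reported here. Alternatives changed the pseudocount, filter, scaling, block or libraries. Promoter sequences and coordinates came from RefSeq (GRCm38.p6).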

Additional observations from a re-analysis of the deposited data

Results flagged for a closer look

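In 3 of 21 groups of 4 libraries, 1 library lay far from the other 3, by a rule that chance meets in about 1 in 20 groups (1.05 expected). The rule was applied to TPM and not to the log2 values of the tests. Odc1 and Srd5a2 were flagged in the same library and varied together. The 3 flags are therefore not independent, and no excess over the expected number is claimed. Odc1 in m3 replicate 4 was 1853 TPM, and the next value in its set was 1009.7 TPM. Srd5a2 in the same library was 62.7 TPM, and the next was 24.9 TPM. Gusb in m2 replicate 4 was 44.0 TPM, and the next was 51.3 TPM. In m3 replicate 4 the S2 marker sum was 1024 TPM against 370.4 to 446 TPM in the rest of m3, and the thick ascending limb marker sum was 4.75 TPM; the part of either was not tested. Without m3 replicate 4, the m3 minus m2 differences of Odc1 and Srd5a2 were 1.00 and 1.72. Without m2 replicate 4, that of Gusb was 0.33 (limma adjusted p = 0.119), so its call is lost.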

How the results depend on the processing

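For PTS2 against whole kidney, 5645 genes were called by limma, 9582 with no filter on low values and 2725 with a mean of at least 10 TPM; the filters change how many genes are tested. Leaving out 1 library gave 4469 to 6433. Among the sets 341 genes were called, 196 with no filter, 167 without m3 replicates 3 and 4 together (added after seeing the data), and 197 to 563 leaving out 1 library. Among the numbers 306 were called, and 75 to 507 leaving out 1 library. That count was 0 with no filter (2871 genes at an unadjusted p under 0.05) and 0 without the set term (1419 genes); no other tool was run. The causes were not tested. Same-numbered tubules did not all pair: 7 of 12 pairs had a correlation of deviations over 0.1 (0.0254 to 0.273), although 9 of 12 libraries correlated best with their own number, a hint from the data and not the design. A replicate block in the fit gave 888 calls among the sets and 5646 against whole kidney. Under that block Hsd17b2, Hsd17b11 and Odc1 had F test adjusted p of 0.0166, 0.0224 and 0.000126 among the sets. It also called Odc1 and Hsd17b2 for m2 minus m1 (adjusted p = 0.00428 and 0.0374), Odc1 and Srd5a1 for m3 minus m1 (0.0105 and 0.0414), and Hsd17b2 and Hsd17b11 for m3 minus m2 (0.0174 and 0.0152); Srd5a2, given without a test, also gained the call for m3 minus m1. Each whole kidney library as its own block, also added after seeing the data, gave 6161 genes. Of the member differences from kidney, 178 of the alternative values stayed on the same side of the threshold, and 3, all of Hsd17b11, moved past it. These values include Kap and Hsd17b2, which were chosen by this contrast. The m3 minus m2 counts below likewise include Srd5a2, chosen by that difference. The stability of these genes is partly set by that choice. For m3 minus m2, 115 stayed, 21 lost the call and 3 gained it; for m2 minus m1, 126, 11 and 2; for m3 minus m1, 136 stayed and 3 gained it. Gusb lost its m3 minus m2 call in 10 settings, Odc1 in 5 and Srd5a1 in 6. Depth is unknown, so no limit of detection is given.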

Other observations

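Several genes known as androgen-induced differed among the numbered tubules. In the fit with set as a term, 4 of 9 were called by number, against 2.71% of all genes tested. Cyp2e1, Cyp2j13 and Cyp4b1, which are cytochrome P450 oxidases, were higher in number 4 than in number 1. Their log2 differences were 1.33, 0.85 and 0.77 (limma adjusted p = 0.00253, 0.00263 and 0.00253). Cyp7b1, an oxysterol and steroid hydroxylase, was lower by the same comparison, at -1.87 (adjusted p = 0.00174). In m1 replicate 4 Cyp7b1 was at 96.8 TPM, its lowest value, and its highest was 784 TPM. Akr1c18 and Hsd11b1 were lower in number 4 at -1.73 and -0.86 (adjusted p = 0.00424 and 0.00483). Esr1 was lower too, at -0.74 (adjusted p = 0.0117). The lists were chosen with earlier results of these data known, and Cyp2j13, Cyp7b1 and Akr1c18 were named after their values were seen. For Cyp4b1, Cyp2j13, Cyp2e1 and Cyp7b1 the F test kept its call in 17 of 18 alternatives and lost it when low genes were not filtered (adjusted p = 0.132, 0.115, 0.132 and 0.111). In a further fit without the set term none of the 9 was called. The S2 marker sum was highest in number 4 of each set, and its part in these differences was not tested.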
